A study of Daphnia magna with 12 samples.

Results

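Old females of the water flea Daphnia magna that had stopped reproducing were compared with young, reproducing females. The comparison uses 8 of the 12 RNA sequencing libraries of a study of age and reproduction in 1 clone. In 4 libraries the females were 130 to 170 days old and non-reproducing, and in the other 4 they were 20 days old and reproducing. The third group, old reproducing females of the same age range, entered the fit to estimate the spread and is given below as values only. All females carried the genotype GB-EL75-69, lived one to a vessel at 20 C in ADaM medium and ate the green alga Scenedesmus acutus. The tissue is labelled whole body, somatic, and no treatment other than age is recorded. Age and the end of reproduction change together here, so their contributions cannot be told apart. Library numbers run in 1 block per group, so anything that followed this numbering cannot be told apart from group. The labels do not say what the numbers record. The labels do not say how many animals a library holds or whether replicates were raised apart, so the p-values measure only the spread between these libraries.

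Daphnia females normally reproduce by parthenogenesis: a clutch of eggs is provisioned with yolk, laid into the brood chamber under the carapace and released as live young, and the female then moults before laying the next clutch. Yolk precursors are made outside the ovary, chiefly in the fat body, so reproduction draws on somatic lipid and protein metabolism. A whole body library averages over gut, fat body, muscle, epidermis and blood cells. In such a bulk sample fewer cells of a type and less RNA per cell cannot be told apart.

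Gene models are known here only by the IDs of a genome annotation, and 0 of the 21456 IDs could be found in the table of gene names for this species. The genes are therefore described by their contig (the assembled stretch of genome that the ID names), by the length of the gene model and by their values, with no name or function. The label "somatic" could not be checked against germline markers for the same reason. Reads totalled 17539749 to 23324131 in old non-reproducing libraries and 16921813 to 25659597 in young libraries. Totals of this size leave counting error small except for rare transcripts.

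Differences within each group bear on every result below. Old non-reproducing replicate 1 stood apart from its group. Over all tested genes its log2 expression correlated with the other old non-reproducing libraries at r = 0.909 to 0.943, with the old reproducing libraries at r = 0.951 to 0.982 and with the young libraries at r = 0.878 to 0.96. The median r was 0.913 with its own group and 0.931 with the young group, so by this measure it was no closer to the group of its label. A higher r with old reproducing libraries was not particular to it. Young replicates 1, 2 and 3 had median r of 0.941, 0.924 and 0.965 with them. With their own group these 3 had 0.912, 0.921 and 0.947. Young replicate 4 went the other way, with 0.938 against 0.953. Across the 8 libraries the first principal component carried 46.9% of the variance. Its scores were 2.57 for old non-reproducing replicate 1 and 69.6 to 78.3 for old non-reproducing replicates 2 to 4, against -100.4 to -25.3 for the young libraries. The next component, with 23.5% of the variance, set young replicates 2 and 4 (scores of -45.96 and -54.7) apart from young replicates 1 and 3 (69.5 and 19.7). It also divided the old non-reproducing group, whose replicates 1 to 4 scored 61.2, -34.8, -25.5 and 10.6. The division of the young libraries did not run through every measure. Young replicate 4 correlated with young replicate 3 (r = 0.955) about as well as with young replicate 2 (r = 0.953). Young replicates 2 and 4 had 15257 and 15217 genes with a read when all libraries were thinned to the same depth, and young replicates 1 and 3 had 14337 and 14236. The part of these differences in the results was tested only by leaving each library out.

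Of 10987 genes tested, 1317 (12%) had an adjusted p under 0.05 in edgeR's quasi-likelihood test and are termed called. In old non-reproducing females 849 genes (7.73%) were higher and 468 (4.26%) were lower. DESeq2 on the same counts gave another balance, with 1296 higher (11.9%) and 1322 lower (12.1%) genes, among them 848 and 467 of those calls. The 4 libraries of each group did not overlap in 688 of the higher genes and 291 of the lower genes; over all genes tested such separation was seen in 9.05% upward and 4.74% downward. The 849 higher genes rose by a median log2 change of 1.54, and by 1.53 with 33 genes that had no more than 3 reads in any young library placed at their bounds. Fitted rises were at least 16-fold (log2 of 4) in 124 of them, and in 111 with those bounds. The 468 lower genes fell by a median of 2.27, or 2.26 with 7 genes that had no more than 3 reads in any old non-reproducing library placed at theirs. Summed over the higher genes, expression reached 26530, 66462, 113461 and 84645 reads per 1000000 (CPM, scaled by library size) in old non-reproducing replicates 1 to 4, against 13919 to 16309 CPM in young libraries. Old non-reproducing replicate 1 was the lowest of its group. That these sums exceed the young ones follows from how the genes were chosen.

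**Figure D1:**
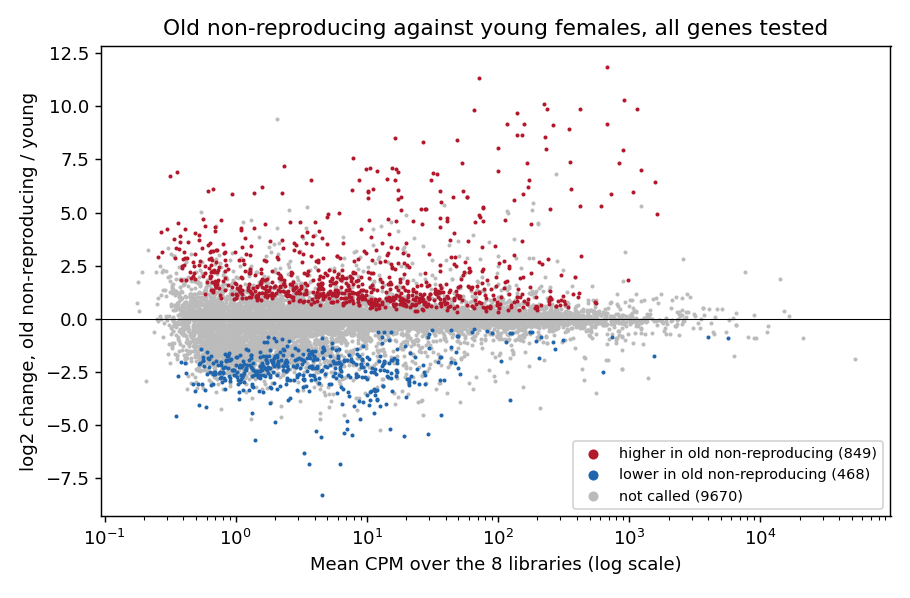
Log2 change of each tested gene (old non-reproducing over young) against its mean CPM over the 8 libraries, on a log scale. Red points are the 849 genes called higher, blue points the 468 called lower and grey points the genes not called; rises above a log2 change of 5 occur at all but the highest abundances, whereas the lower calls sit mostly under 50 CPM.

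The rises with the largest fold were genes near silence in young females that were abundant in 3 of the 4 old non-reproducing libraries. A call is termed durable where it held in each of the 8 fits that left out 1 compared library. The 10 durable genes with the largest rise, among those averaging 10 CPM or more whose groups did not overlap, lie on 10 different contigs. In old non-reproducing replicates 2 to 4 they ranged over 17.8 to 2713 CPM, and in old non-reproducing replicate 1 over 0.366 to 4.59 CPM. In young libraries they ranged over 0 to 1.26 CPM. Old non-reproducing replicate 1 was the lowest library of its group in all 10. It was still 2.45- to 34.5-fold above the young mean, and the rule of no overlap required it to exceed every young library. In old reproducing libraries the same genes ranged over 0.0395 to 18.3 CPM, with medians of 0.409, 0.435, 0.552 and 3.05 CPM in replicates 1 to 4.

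The gene model augustus_masked-000018F-processed-gene-8.3, of 1646 bases, rose most among these 10. It had 4.59, 892, 2713 and 1817 CPM in old non-reproducing libraries, against 0.544, 0.21, 0.372 and 0.359 CPM in young libraries. Its log2 change was 11.83 ± 1.83 (SE; edgeR adjusted p = 0.00355). The gene model augustus_masked-000035F-processed-gene-1.44, of 1221 bases, had 1.38, 311, 17.8 and 248 CPM in old non-reproducing libraries. In young libraries it had at most 3 reads, so the mean of the old non-reproducing libraries was at least 883-fold higher than a floor of 3 counts per young library (edgeR adjusted p = 0.00409). Its values varied more within the old non-reproducing group than between that group's lowest library and the young ones. The other large rises had log2 changes down to 7.34, as in a 3319-base model on contig 000005F. That model had 1.71, 95.8, 145 and 178 CPM in old non-reproducing libraries and 0.408, 0.367, 1.12 and 0.682 CPM in young libraries (edgeR adjusted p = 0.00514).

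Other called rises were smaller. The 5 higher genes with the smallest p were chosen after their values were seen, and a small p selects for a small spread between libraries, so their evenness is a description. They had log2 changes of 1.54 to 2.49 with standard errors of 0.101 to 0.171 (edgeR adjusted p = 2.57e-05 to 2.59e-05). A 3217-base model on contig 000001F had 51.3, 35.9, 43.8 and 49.99 CPM in old non-reproducing libraries, against 10.3, 11.2, 9.85 and 8.94 CPM in young libraries. A 2754-base model on contig 000038F had 209, 196, 186 and 240 CPM in old non-reproducing libraries and 32.4, 33.2, 41.0 and 41.1 CPM in young libraries. In neither gene did the groups approach each other, and old non-reproducing replicate 1 lay among or above its group. A 1914-base model on contig 000012F had 42.2, 41.1, 40.7 and 45.8 CPM in old non-reproducing libraries and 15.0, 12.8, 15.3 and 15.4 CPM in young libraries. Old reproducing libraries, compared with the same young libraries, had 31.9, 32.2, 37.8 and 33.6 CPM of this gene.

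**Figure D2:**
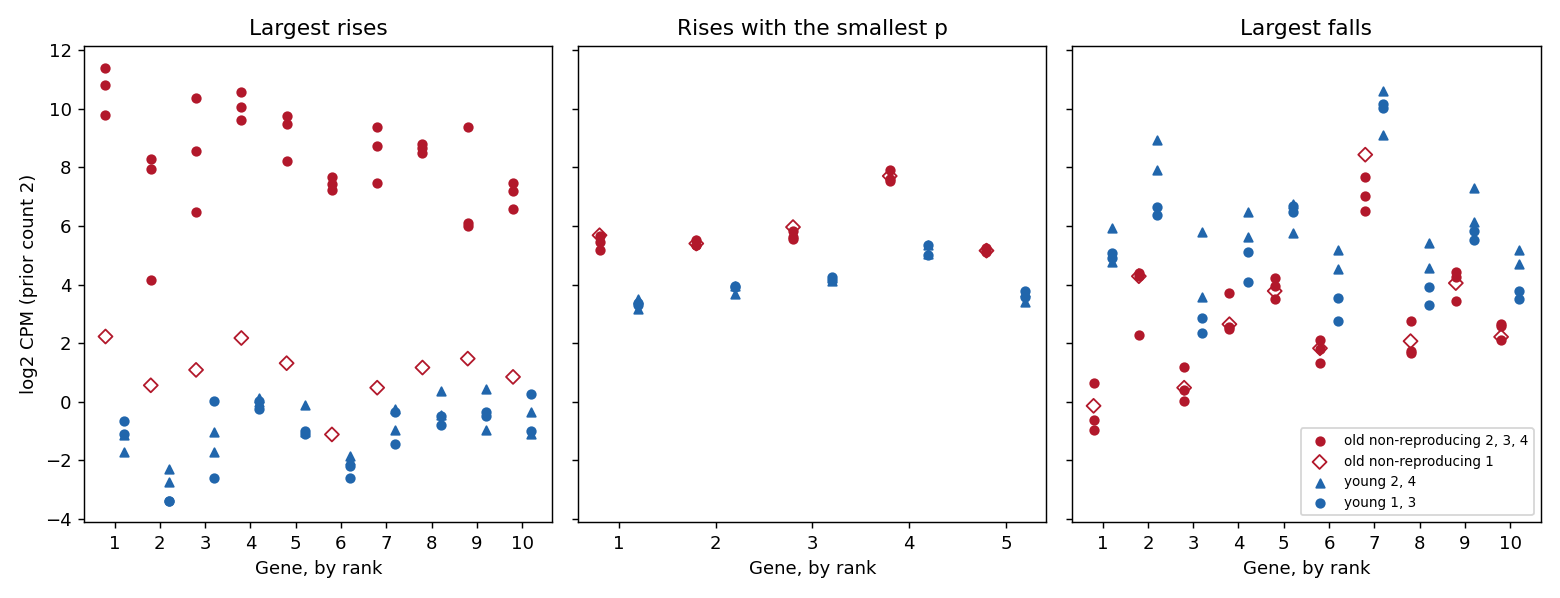
Log2 CPM (prior count of 2) in each library for the 10 durable genes with the largest rise, the 5 higher genes with the smallest p, and the 10 durable genes with the largest fall, with old non-reproducing libraries in red left of young libraries in blue. Old non-reproducing replicate 1 (open diamonds) lies above the young libraries in the first panel, but nearer to them than to the rest of its group. It lies with its own group in the second panel. Young replicates 2 and 4 (triangles) are often the highest in the third.

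Each library was then judged by genes called without it. A position was computed for the library left out, with 0 at the mean of the young libraries and 1 at the mean of the old non-reproducing ones, on log2 CPM. Fits without old non-reproducing replicates 1 to 4 called 8.2%, 5.43%, 4.84% and 4.36% of their genes higher, and fits without young replicates 1 to 4 called 8.68%, 3.99%, 7.6% and 4.92% higher. In the fit without old non-reproducing replicate 1, 882 of the genes tested in the full fit were called higher, and that library's median position on them was 0.59 (quartiles 0.15 and 0.99). It was nearer to its own group in 54.5% of them. The background share was 54.2%, taken over all tested genes whose means without the library differed in the same direction. Old non-reproducing replicates 2, 3 and 4, each judged in the same way, had medians of 0.95, 0.98 and 1.09. They lay nearer to their own group in 86.7%, 93.6% and 94.0% of the higher genes, where the background shares were 59.8%, 64.2% and 70.1%. The mean set to 1 for these 3 libraries includes replicate 1, which raises their positions wherever replicate 1 is low.

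The position of old non-reproducing replicate 1 differed with the size of the rise. In the 160 genes with a log2 change under 1 in the fit without it, its median position was 0.58, and in the 342 genes with a change of 1 to 2 it was 0.85. In the 238 genes with a change of 2 to 4 it was 0.37, and in the 142 genes with a change of at least 4 it was 0.15. Median expression of the 342 genes was 9.55, 10.5, 9.69 and 10.4 CPM in old non-reproducing replicates 1 to 4, against 3.67 to 4.12 CPM in young libraries, and replicate 1 exceeded every young library in 281 of them (82.2%), as it did in 21.4% of all tested genes. Median expression of the 142 genes was 2.05, 32.6, 79.8 and 55.4 CPM in old non-reproducing replicates 1 to 4, against 0.476 to 0.862 CPM in young libraries. Replicate 1 exceeded every young library in 75 of the 142 (52.8%). Old reproducing libraries had median levels of 7.90 to 9.37 CPM for the 342 genes and of 0.91 to 3.72 CPM for the 142 genes, the highest of these last in old reproducing replicate 4.

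**Figure D3:**
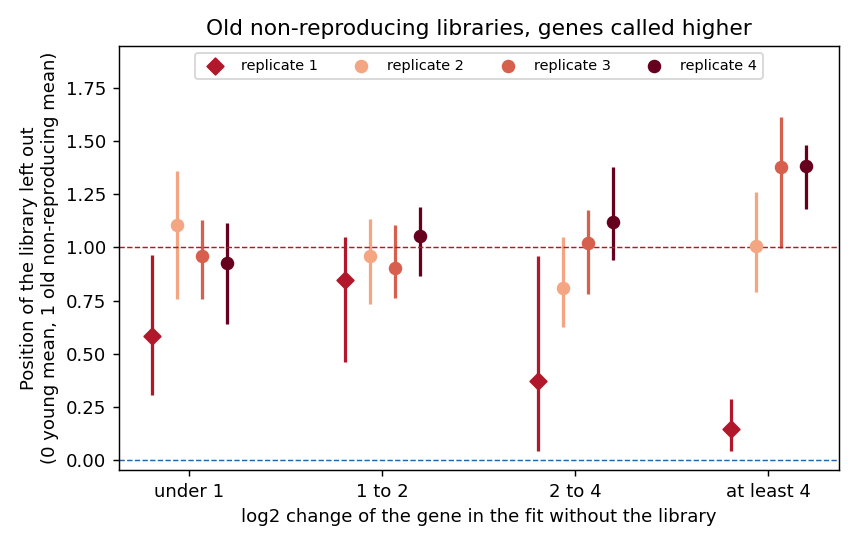
Position of each old non-reproducing library on the genes called higher in the fit that left it out, by class of log2 change, where 0 is the young mean and 1 the mean of the other old non-reproducing libraries; points are medians over genes and lines span the quartiles. Replicate 1 (diamonds) is at 0.85 for log2 changes of 1 to 2 and at 0.15 for changes of at least 4, and the medians of replicates 2 to 4, whose own mean at 1 includes replicate 1, lie between 0.81 and 1.39.

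The most abundant higher genes per base of gene model, ranked by deposited RPKM (reads per kilobase per 1000000 reads), differed in how they rose. The first, a 1005-base model on contig 000026F, had 867, 1552, 6286 and 2661 RPKM in old non-reproducing libraries, against 182, 91.5, 87.6 and 13.4 RPKM in young libraries. Its log2 change was 4.94 ± 1.18 (SE; edgeR adjusted p = 0.0271), and the call held in 4 of the 8 fits that left out a compared library. A 713-base model on contig 000011F, which was called in all 8, had 22.8, 1454, 2918 and 2302 CPM in old non-reproducing libraries and 10.2, 8.96, 8.36 and 14.0 CPM in young libraries. Models of 1232 and 1617 bases with consecutive IDs on contig 000018F both rose (edgeR adjusted p = 0.0271 and 0.017). The longer had 10.2, 1846, 3131 and 2313 CPM in old non-reproducing libraries and 0.476, 0.629, 0.496 and 4.02 CPM in young libraries. If the pair are near-identical copies, reads could have been split between them. A 641-base model on contig 000005F rose evenly, with 961, 629, 1030 and 900 RPKM in old non-reproducing libraries and 284, 488, 411 and 326 RPKM in young libraries (log2 change 1.22 ± 0.29 SE, edgeR adjusted p = 0.0251, held in 5 of 8 fits).

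The lower genes differed less evenly, and in most of them young replicates 2 and 4 were the high young libraries. In 398 of the 468 (85.0%) both of these libraries were above both of young replicates 1 and 3, a pattern seen in 25.1% of all tested genes. Young replicate 2 was the highest young library in 416 of the 468, against 32.0% of all tested genes. Of the 468 calls, 447 held without young replicate 1 and 454 without young replicate 3, but only 62 without young replicate 2 and 79 without young replicate 4. Without old non-reproducing replicates 1 to 4, each left out in turn, 138, 74, 114 and 38 of them held. In a fit to the 8 libraries compared, 56 of the 468 held. Fits without old reproducing replicates 1 to 4 called 209, 213, 256 and 563 genes lower. The lower calls thus depended on libraries of both groups and on the old reproducing libraries, which are not compared.

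The young libraries left out also differed on the lower genes. Fits without old non-reproducing replicates 1 to 4 called 2.26%, 0.768%, 1.28% and 0.366% of their genes lower, and fits without young replicates 1 to 4 called 7.66%, 0.564%, 10.1% and 0.73% lower. Without young replicate 3, 1085 of the genes tested in the full fit were called lower, and the median position of that library was 0.81, nearer to the old non-reproducing mean than to its own group. It lay on the young side in 13.1% of these genes, where the background share, taken as above, was 47.7%. Without young replicate 1, 827 genes were called lower, with a median position of 0.59 and 38.3% on the young side, near the background share of 42.2%. Young replicates 2 and 4 lay on the young side in 93.8% of 64 and 92.6% of 81 such genes, where the background shares were 67.4% and 65.7%. On the lower genes called without them, old non-reproducing replicates 1 to 4 had median positions of 0.45, 0.80, 0.60 and 1.18. Old non-reproducing replicate 1 was nearer to its own group in 46.6% of 251 such genes, below its background share of 61.6%. For old non-reproducing replicates 2 to 4 these shares were 77.0%, 66.4% and 97.4%, with background shares of 59.3%, 56.8% and 72.8%. For the higher genes every young library had a median position near 0, from -0.03 to 0.13. Young replicates 1 to 4 lay on the young side in 71.0%, 96.6%, 89.3% and 91.3% of these genes. The background shares were 53.6%, 72.9%, 50.6% and 67.0%. Young replicate 1 was the least uniform, with an upper quartile of 0.60.

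**Figure D4:**
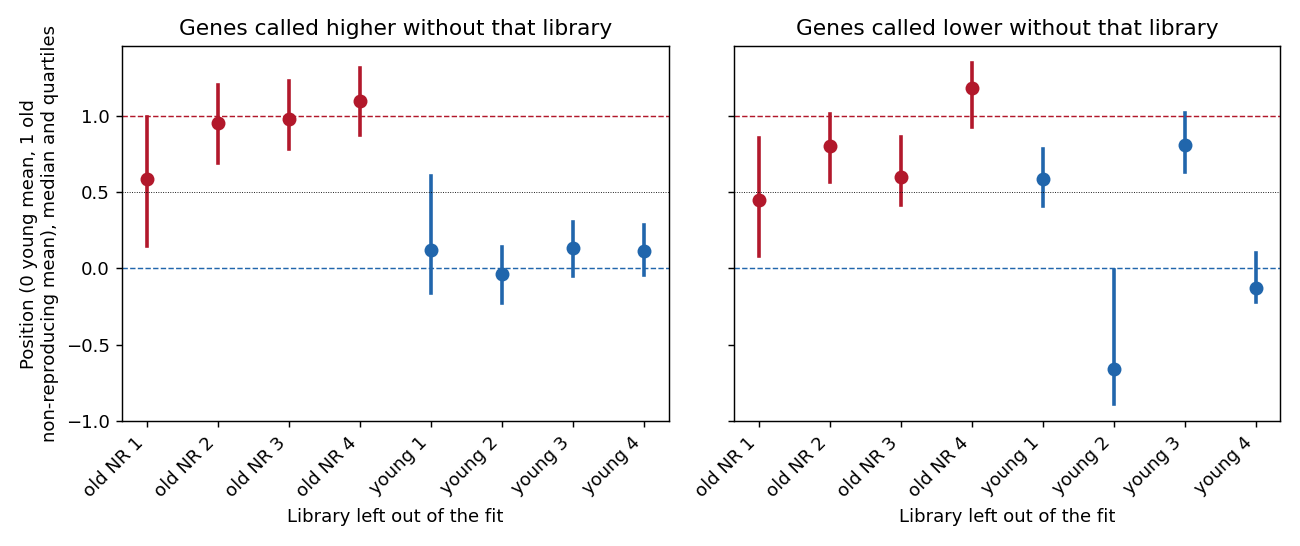
Median position (points) and quartiles (lines) of each compared library on the genes called without it, for genes called higher (left) and lower (right), with old non-reproducing (old NR) libraries in red and young libraries in blue. For higher genes only old non-reproducing replicate 1 falls far from its group, at 0.59. For lower genes young replicates 1 and 3 lie at 0.59 and 0.81, on the side of the old non-reproducing mean. Old non-reproducing replicate 1 lies at 0.45 there, on the side of the young mean.

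Few lower genes were called in every fit. The gene model maker-000028F-snap-gene-5.63, of 1320 bases, had the largest durable fall. It had 0.812, 0.422, 0.56 and 1.46 CPM in old non-reproducing libraries, against 33.9, 61.4, 29.6 and 26.9 CPM in young libraries, a log2 change of -5.52 ± 0.45 (SE; edgeR adjusted p = 9.85e-05). Old reproducing libraries had 0.491, 0.831, 0.71 and 0.403 CPM of it. Both old groups were thus low for this gene, and every young library was far above them. The gene model maker-000016F-augustus-gene-1.38, of 4731 bases, had 19.4, 20.9, 19.3 and 4.81 CPM in old non-reproducing libraries and 99.5, 494, 83.9 and 239 CPM in young libraries (log2 change -3.83 ± 0.79 SE, edgeR adjusted p = 0.0143). Here young replicates 2 and 4 stood above young replicates 1 and 3, as they did in 7 of the 10 durable genes with the largest fall. A 2304-base model on contig 000011F did not follow that pattern. It had 13.7, 15.2, 11.3 and 18.6 CPM in old non-reproducing libraries and 89.4, 53.7, 102 and 108 CPM in young libraries (log2 change -2.59 ± 0.30 SE, edgeR adjusted p = 0.000714).

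The most abundant lower genes by RPKM fell by smaller factors. A 2288-base model on contig 000002F had 1634, 1674, 1900 and 1526 RPKM in old non-reproducing libraries, against 3663, 2554, 2857 and 3200 RPKM in young libraries. Its log2 change was -0.89 ± 0.24 (SE; edgeR adjusted p = 0.038), and the call held in 2 of the 8 fits. A 959-base model on contig 000001F had 346, 129, 202 and 92.2 CPM in old non-reproducing libraries and 1035, 1565, 1135 and 555 CPM in young libraries, with a call in all 8 fits (log2 change -2.48 ± 0.48 SE, edgeR adjusted p = 0.00988). Models of 4638, 5762 and 6013 bases fell by 0.87, 1.74 and 0.84 on the log2 scale and held in 4, 1 and 6 of the 8 fits.

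Durable calls were much more frequent among higher genes. In all 8 fits that left out 1 compared library, 386 of the 849 higher genes (45.5%) and 37 of the 468 lower genes (7.91%) were called in the same direction. Of the durable higher genes, 232 had a log2 change under 2, and their median expression was 12.5 to 13.7 CPM in old non-reproducing libraries and 5.17 to 6.13 CPM in young libraries. Old reproducing libraries had medians of 11.3 to 12.9 CPM for these 232 genes, read against the same young libraries. A further 62 had a fitted log2 change of at least 4, 52 with genes at the floor set to their bounds. Median levels of the 37 durable lower genes were 2.76, 2.27, 3.19 and 2.43 CPM in old non-reproducing libraries, against 8.50, 15.9, 6.07 and 11.9 CPM in young libraries. All 21 alternatives at an adjusted p under 0.05, other than the filter at 10 CPM, kept 262 higher and 13 lower calls.

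Higher and lower genes also differed in abundance and length. The genes tested were divided by mean CPM into 4 equal classes and by length of the gene model at the median. Among genes in the lowest CPM class, 4.10% of longer and 7.97% of shorter models were called higher, and 9.39% of longer and 3.74% of shorter models were called lower. In the next class lower calls made up 10.6% of longer and 4.46% of shorter models, and higher calls 5.20% and 12.3% of them. In the highest CPM class only 1.03% of longer and 0.493% of shorter models were called lower. The 2082 longer models of the lowest 2 classes summed to 4870, 5296, 5892 and 5044 CPM in old non-reproducing libraries, against 5471, 11189, 4569 and 7081 CPM in young libraries. Young replicates 2 and 4 were thus the high ones, and young replicate 3 was below every old non-reproducing library. Genes are not replicates, so these shares carry no test.

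**Figure D5:**
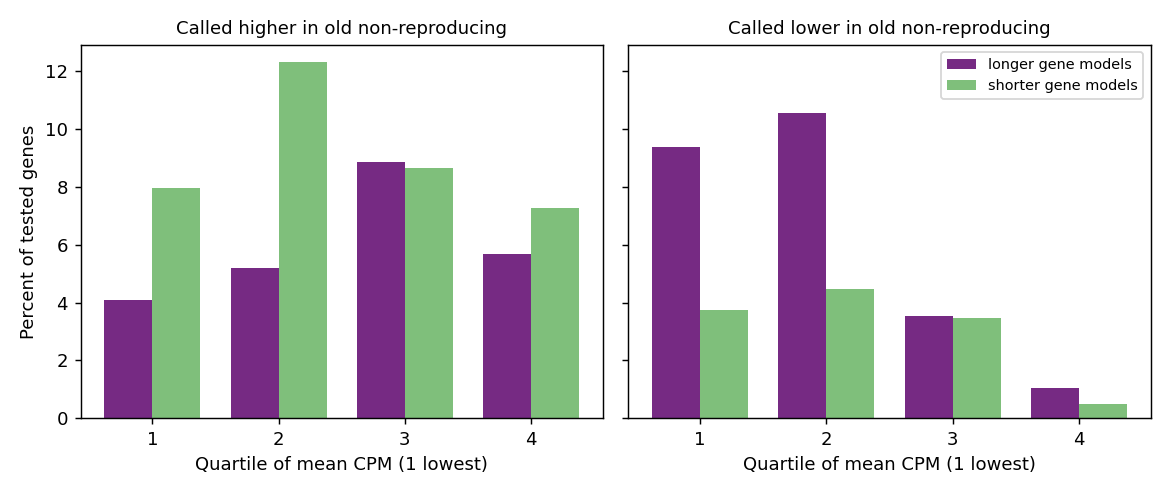
Percent of tested genes called higher (left) and lower (right) in old non-reproducing females by quartile of mean CPM, for gene models longer than the median (purple) and shorter (green). Lower calls reach 9.39% and 10.6% of the longer models in the lowest 2 quartiles and 1.03% in the highest.

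Called genes were found on most contigs. Among 66 contigs with at least 20 genes tested, the share of higher genes had a median of 7.71% and that of lower genes a median of 4.00%. The highest share of higher genes was 10 of 40 on contig 000027F (25%). It was 10% without old non-reproducing replicate 3 or 4 or young replicate 4, and 11.6% without young replicate 2. Contig 000018F, which carries the durable gene with the largest rise, had 51 higher genes of 363 tested (14.0%). Smaller contigs such as 000070F (20%) and 000037F (19.2%) had larger shares. Gene IDs that share a contig and the first number after the word gene were taken as a block. Another higher gene stood in the block of 541 of the 849 higher genes (63.7%), and at least 1 higher gene in the block of 48.9% of the genes not called. For lower genes these shares were 44.0% and 37.8%. One block of contig 000018F, chosen after its values were seen, held 14 higher genes among 36 tested, with log2 changes of 0.61 to 4.62. Their median was 1.17, and 10 were under 2. The large rises described above on this contig lie outside this block.

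The counts of old non-reproducing females were spread over more genes by 4 measures, but no difference passed the adjustment for these measures. The top 10 genes of each library took up 12.9, 17.97, 18.9 and 11.4% of the counts in old non-reproducing libraries, against 19.6, 20.9, 22.2 and 23.5% in young libraries. The groups did not overlap, and the two-sided exact permutation p of 0.0286 is the smallest that 4 against 4 libraries allow, or 0.0762 when adjusted over the 4 measures tested. The effective number of genes, the exponential of the Shannon entropy of the count shares, was 1250 ± 208 in old non-reproducing and 910 ± 59.4 in young libraries (SD, n = 4 each; exact permutation p = 0.0571, adjusted 0.0762). The 100 most abundant genes held 40.8 ± 3.52% of the counts in old non-reproducing libraries and 45.9 ± 0.444% in young libraries (SD, n = 4 each; exact permutation p = 0.0571, adjusted 0.0762). The number of genes with a read at equal depth was 15206 ± 233 in old non-reproducing and 14762 ± 551 in young libraries (SD, n = 4 each; exact permutation p = 0.229).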

How the data were processed

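Per the labels' protocols, extraction used Qiagen RNeasy and library preparation used NEBNext Ultra II Directional. STAR and SAMtools are named in the submitters' processing notes; versions, counting program, strand setting and genome build are not given in the sources used here. Raw counts of reads for each gene model, and RPKM values, were deposited by the authors, per the file headers. Counts divided by library total and 1 length per gene rebuilt the RPKM.

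Counts were analysed with edgeR 4.0.16 in R 4.3.3: filterByExpr with the 3 groups, TMM factors, a robust quasi-likelihood fit to all 12 libraries, two-sided tests of old non-reproducing against young, and Benjamini-Hochberg adjustment over 10987 genes. Standard errors are the log2 change over the root of F. CPM uses TMM-scaled library sizes; log2 CPM has a prior count of 2. The common biological coefficient of variation was 0.456. Genes are described by rule: called, mean of at least 10 CPM, no overlap, and either durable (10 largest rises and falls) or among the 5 most abundant by RPKM in each direction (29 genes). The 5 higher genes with the smallest p were added after their values were seen. Pairs of libraries in a group all exceeded sampling noise (chi-square over its degrees of freedom at least 108), so none were merged. Floors cover counting error only, whereas the standard errors include the spread between libraries. DESeq2 1.42.0 and limma 3.58.1 were alternatives. The comparison, rules and lists were chosen with earlier results of these data known. Gene lists by product name were not run.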

Additional observations from a re-analysis of the deposited data

Results flagged for a closer look

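For the 29 genes described by rule, 4 measures of how counts are spread over genes and the contrasts by abundance and by length, each group of 4 libraries was searched for a library whose gap to its nearest neighbour, as a share of the group's range of values (log2 CPM for genes), was above Dixon's 95% critical value. This limit is passed by chance in about 1 in 20 groups. The groups are read in the same libraries and are not independent, so the counts are a description. Of 70 groups, 3.5 were expected to pass, and 12 passed.

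Old non-reproducing replicate 1 was the low library in 7 of them, all large rises. The gap was 0.959 of the range for a 1996-base model on contig 000000F, 0.946 for a 1909-base model on 000022F, 0.885 for a 2401-base model on 000023F and 0.865 for the 3319-base model on 000005F. It was 0.918 and 0.908 for the neighbouring models of 1232 and 1617 bases on 000018F, and 0.856 for the 713-base model on 000011F. Why this library stood apart was not tested.

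Old non-reproducing replicate 4 was the low library for maker-000016F-augustus-gene-1.38, with a gap of 0.947. Old non-reproducing replicate 3 was high for a 3273-base model on 000034F (0.867) and for the 2288-base model on 000002F (0.98). Young replicate 2 was high for a 3758-base model on 000032F (0.892). That gap rests on few reads, with 6, 16, 6 and 11 in young replicates 1 to 4. Young replicate 4 was high for the 1617-base model on 000018F (0.88).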

How the results depend on the processing

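Counts of calls moved with most alternatives. Without one of the 12 libraries, 517 to 2047 genes were called, 453 to 1000 higher and 41 to 1169 lower; the fewest lower calls came without old non-reproducing replicate 4 and the most without young replicate 3. Total, higher and lower calls were 875, 664 and 211 with no filter on low counts, 375, 307 and 68 with a filter at a mean of 10 CPM, 470, 413 and 57 in a fit to the 8 libraries compared, and 307, 290 and 17 at an adjusted p under 0.01. They were 2618, 1296 and 1322 with DESeq2, 654, 592 and 62 with limma-trend on log2(RPKM + 1), and 776, 686 and 90 with a pseudocount of 0.1. A fit to 7 libraries, without old non-reproducing replicate 1 and the old reproducing group, was chosen after seeing the data and gave 574, 499 and 75. Upper-quartile factors gave 688 higher and 544 lower calls. With the replicate number as a block the counts were 498, 450 and 48. Deviations of same-numbered old non-reproducing and young libraries correlated at 0.36, -0.11, -0.19 and -0.10. Of the 4 old non-reproducing libraries, 1 correlated best with its own number. A pairing by number was therefore not shown, and so few libraries cannot exclude it.

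Of 666 pairings of the 29 genes described by rule with an alternative, 591 kept their call, 75 lost it and 0 changed direction. The durable genes were chosen as called in the 8 fits without 1 compared library. Their pairings with those 8 fits were therefore kept by choice and are no check. The difference in median log2 change between the highest and lowest CPM quartile, 0.35, was 0.15 with log2(RPKM + 1) and ranged over 0.17 to 0.46 without 1 library. The share of lower genes on contig 000030F, 13.04% of 46, ranged over 0% to 17.6% without 1 library, and that of higher genes on contig 000027F, 25%, over 10% to 27.9%. The cause of these shifts was not tested. The 4 measures of how counts are spread over genes kept their direction in all 11 alternatives. The replicate block cannot change these differences. Libraries at their own depth can change only the genes with a read. These are therefore no check of direction, except the last for that measure. The smallest exact p is 0.0571 for 3 libraries against 4 and 0.125 for 4 pairs, so only the alternatives with all libraries unpaired could have passed 0.05. The difference in genes with a read, 444.5, was 20.75 over filtered genes only and 269 to 610 without 1 library (the lowest without young replicate 3). At an adjusted p under 0.01, also chosen after seeing the data, the median position of old non-reproducing replicate 1 on higher genes was 0.58, against 0.59.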

Other observations

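Of 43 tested genes with no more than 3 reads in any young library, 33 were called higher, and of 10 with no more than 3 reads in any old non-reproducing library, 7 were called lower. Such genes pass the filter only through the group where they are high, so these counts are a description.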
